A study of Mus musculus with 25 samples.

Results

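Branched-chain amino acid (BCAA) catabolism was followed through 10 genes, Bcat2, Bckdha, Bckdhb, Dbt, Ivd, Mccc1, Mccc2, Acadsb, Hibch and Pcca. They were taken by gene symbol from the count files, which hold 54752 genes, and all 10 were present and passed the filter on low counts in both depots. The 25 libraries were RNA-seq of whole epididymal (eWAT) and inguinal (iWAT) white adipose tissue of male mice. WT mice on normal chow diet (ND) gave 4 eWAT and 3 iWAT libraries, WT mice on high-fat diet (HFD) gave 5 and 5, and Acod1-/- mice on HFD gave 5 and 3. Strain was labelled C57BL/6N, with C57BL/6NJ in the treatment text. HFD, with 60% of calories from fat, began at 5 weeks of age and lasted 16 weeks, except that replicates 2 and 3 of the iWAT Acod1-/- HFD group carried labels of 17 and 18 weeks. Acod1 encodes the mitochondrial enzyme that makes itaconate from cis-aconitate. The deletion was a whole-body CRISPR allele (C57BL/6N-Acod1em1(IMPC)J/J), there was no Acod1-/- group on ND, and from weaning to the start of the diet mice were caged by genotype and after that singly.

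Leucine, isoleucine and valine are first transaminated by the mitochondrial aminotransferase BCAT2, and the resulting keto acids are then decarboxylated by the branched-chain keto acid dehydrogenase (BCKDH) complex, the committed step. From there the 3 amino acids run through separate branches of acyl-CoA dehydrogenases, carboxylases and hydrolases, which end in acetyl-CoA, acetoacetate and propionyl-CoA. White adipocytes carry the pathway at a high level and use its carbon for lipid synthesis, and its decline in adipose tissue is a known companion of obesity.

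Libraries held 31405063 to 52335623 reads on genes. Acod1 itself had at most 9 reads in any library, 9 being the highest in WT HFD libraries of either depot and 2 the highest in Acod1-/- libraries, so it was too low to check genotype labels in these tissues. Adipocyte markers such as Adipoq and Plin1 were abundant in every group. Traces of other tissues differed between libraries. Summed markers of epididymis reached 7864 CPM (reads of a gene scaled to a fixed library total) in eWAT WT ND replicate 2. Those of skeletal muscle reached 8758 CPM in iWAT WT ND replicate 1, and those of epithelium 580 CPM in iWAT Acod1-/- HFD replicate 2. Lymphocyte markers summed to between 507 and 792 CPM in the iWAT ND libraries and to no more than 71.3 CPM in any iWAT HFD library. Library numbers in the file headers fell in 2 separate ranges, and the later range held every ND library plus WT HFD replicate 5 of both depots, eWAT Acod1-/- replicate 5 and iWAT Acod1-/- replicate 3. Diet was therefore largely confounded with this number range.

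Per length, the subunits of the BCKDH decarboxylase stood at the top and methylcrotonyl-CoA carboxylase alpha at the bottom. As FPKM, which scales reads by gene length and library size, in eWAT of WT ND mice, Bckdhb averaged 75.5 ± 12.8 and Bckdha 69.03 ± 5.25 (SD, n = 4). Mccc1 averaged 17.5 ± 5.44 FPKM in the same libraries, and it ranked last in all 6 groups, with Pcca next above it. Bckdha and Bckdhb held the first and second rank in all 6 groups. These ranks rest on the gene lengths used, 10952 bases for Mccc1 against 1805 for Bckdhb and 1899 for Bckdha. Before division by length, Mccc1 averaged 187 CPM in eWAT of WT ND mice, above Bckdhb (133 CPM) and Bckdha (127 CPM). Whether the order holds with the lengths of the transcripts present was not tested. Most neighbours in the order could not be separated, since the ranges overlapped in 42 of 54 neighbouring pairs, but Mccc1 lay below Pcca without overlap in 5 of the 6 groups. Levels given from here on are CPM after TMM scaling, which compare 1 gene between libraries and not genes with each other.

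In eWAT of WT mice, most of the 10 genes were lower on HFD than on ND. Of the 10 genes, 9 fell and none rose (edgeR quasi-likelihood test, adjusted p under 0.1), where 26.9% of the 14936 genes tested fell and 24.8% rose. The median log2 fold change of the 10 was -0.74, against -0.04 over all genes tested. Bckdha was the exception. In 5 of the 10 genes every WT HFD library lay below every ND library, a separation that 18.0% of all genes tested showed.

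The largest fall was that of Ivd, isovaleryl-CoA dehydrogenase, the acyl-CoA dehydrogenase of the leucine branch (ENSMUSG00000027332, chr2:118861954-118882909 on the plus strand, mm10). The 4 ND libraries read 235, 292, 349.99 and 352 CPM and the 5 WT HFD libraries 74.1, 125, 119, 99.4 and 149 CPM. All WT HFD libraries were below all ND libraries, with a log2 fold change of -1.44 ± 0.23 (SE), 0.369 of the ND level (edgeR adjusted p = 0.000614). Acadsb, the short/branched-chain acyl-CoA dehydrogenase of the isoleucine branch (ENSMUSG00000030861, chr7:131410601-131448944 on the plus strand), showed the same separation. It read 253, 308, 292 and 373 CPM on ND and 97.6, 154, 148, 132 and 152 CPM on HFD, a log2 fold change of -1.16 ± 0.15 (adjusted p = 0.000264).

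The promoter windows of these 2 genes are shown because Ivd changed most and Acadsb had the largest difference in diet response between depots among the 10. RefSeq (GRCm38.p6) windows of 300 bases, 250 before and 50 after each start, were available for 9 of the 10 genes as 12 windows, and Dbt was without one. Capitals mark the CCAAT box (CCAAT) and the GC box (GGGCGG), searched on both strands.
Ivd, chr2:118861744-118862043, plus strand: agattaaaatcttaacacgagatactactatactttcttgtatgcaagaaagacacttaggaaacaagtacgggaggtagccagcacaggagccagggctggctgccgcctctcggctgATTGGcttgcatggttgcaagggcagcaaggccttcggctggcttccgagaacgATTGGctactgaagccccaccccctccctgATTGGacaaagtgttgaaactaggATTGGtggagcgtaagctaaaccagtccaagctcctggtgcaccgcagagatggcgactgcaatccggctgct
Acadsb, chr7:131410351-131410650, plus strand: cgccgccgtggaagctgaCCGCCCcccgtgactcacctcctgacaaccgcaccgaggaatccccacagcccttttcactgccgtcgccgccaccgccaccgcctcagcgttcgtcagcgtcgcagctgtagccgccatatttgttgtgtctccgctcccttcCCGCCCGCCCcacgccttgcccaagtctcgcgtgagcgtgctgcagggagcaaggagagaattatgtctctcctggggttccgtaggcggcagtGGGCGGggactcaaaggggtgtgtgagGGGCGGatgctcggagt
The Ivd window held 4 CCAAT boxes, all on the reverse strand, and no GC box, whereas the Acadsb window held 5 GC boxes, 2 of which overlap, and no CCAAT box. Over the pathway, a CCAAT box stood in 7 of the 12 windows, in Bckdhb, Ivd, Mccc1, Mccc2 and Pcca, against 37.4% of all 32851 windows of this length. A GC box stood in 5 of the 12 windows against 35.7% of all windows. The estrogen-related receptor element TNAAGGTCA had no match in the 12 windows, and stood in 1.28% of all windows. The E-box CACGTG had a match in the window of Mccc2 and in 7.15% of all windows. Such matches describe letters in these windows and say nothing of binding.

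At the first step, Bcat2 (ENSMUSG00000030826, chr7:45570153-45589711 on the plus strand) read 143, 172, 214 and 302 CPM in eWAT on ND and 85.02, 116, 132, 126 and 152 CPM on HFD. The groups overlapped, through ND replicate 1 and WT HFD replicate 5, and the log2 fold change was -0.77 ± 0.27 (edgeR adjusted p = 0.034). Without ND replicate 4, the highest library, it no longer passed (adjusted p = 0.133).

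Within the BCKDH complex the subunits did not fall to the same degree. Dbt, the E2 transacylase core (ENSMUSG00000000340, chr3:116513070-116549981 on the plus strand), read 94.96, 95.8, 130.3 and 123 CPM on ND and 39.7, 51.3, 64.1, 44.2 and 78.9 CPM on HFD, with no overlap and a log2 fold change of -0.995 ± 0.22 (adjusted p = 0.00328). Bckdhb, the E1 beta subunit (ENSMUSG00000032263, chr9:83925145-84124240 on the plus strand), ranged from 105 to 173 CPM on ND and from 53.3 to 113 CPM on HFD, with a log2 fold change of -0.67 ± 0.25 (adjusted p = 0.0409, and 0.128 without ND replicate 3). Bckdha, the E1 alpha subunit (ENSMUSG00000060376, chr7:25629946-25658981 on the minus strand), read 109, 116, 139 and 144 CPM on ND and 72.7, 105, 112, 107 and 141 CPM on HFD. These groups overlapped broadly, and the log2 fold change of -0.24 ± 0.18 did not pass (adjusted p = 0.305). Of the exon bases of Bckdha, 61.7% are shared with B3gnt8 on the opposite strand, and the strand setting of the counting is not given in the sources used here. B3gnt8 had a median of 193 reads per library against 6112 for Bckdha.

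The 2 subunits of methylcrotonyl-CoA carboxylase, which acts after Ivd in leucine breakdown, also fell unequally. Mccc1, the biotin-carrying alpha subunit (ENSMUSG00000027709, chr3:35959312-36000678 on the minus strand), read 132, 158, 175 and 284 CPM on ND and 62.3, 97.5, 87.4, 94.5 and 97.6 CPM on HFD, without overlap and with a log2 fold change of -1.09 ± 0.21 (edgeR adjusted p = 0.00183). Mccc2, the beta subunit (ENSMUSG00000021646, chr13:99948530-100015639 on the minus strand), read 71.4, 83.5, 107 and 100.05 CPM on ND and 40.7, 67.1, 77.5, 71.9 and 72.8 CPM on HFD, and here the groups overlapped. Its log2 fold change of -0.45 ± 0.20 (adjusted p = 0.0769) was lost without ND replicate 3 (0.193), ND replicate 4 (0.162), WT HFD replicate 1 (0.132) or WT HFD replicate 2 (0.101).

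Hibch, the hydrolase of the valine branch (ENSMUSG00000041426, chr1:52844929-52920986 on the plus strand), ranged from 151 to 244 CPM on ND and from 84.5 to 159.7 CPM on HFD, with an overlap at the edges and a log2 fold change of -0.62 ± 0.20 (adjusted p = 0.0225). Pcca, the alpha subunit of propionyl-CoA carboxylase, into which the isoleucine and valine branches feed (ENSMUSG00000041650, chr14:122534324-122891100 on the plus strand), ranged from 105 to 164 CPM on ND and from 55.4 to 87.4 CPM on HFD. It separated the groups, with a log2 fold change of -0.72 ± 0.17 (adjusted p = 0.00504). When the fit also held the number range, 6 of the 10 genes fell, where 16.9% of the genes tested did, and Bckdhb (adjusted p = 0.127), Hibch (0.106) and Mccc2 (0.12) did not pass. WT HFD replicate 5, the library of its group that shares the later range with the ND libraries, lay within the ND values for the 5 genes without separation, Bcat2, Bckdha, Bckdhb, Mccc2 and Hibch.

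**Figure D1:**
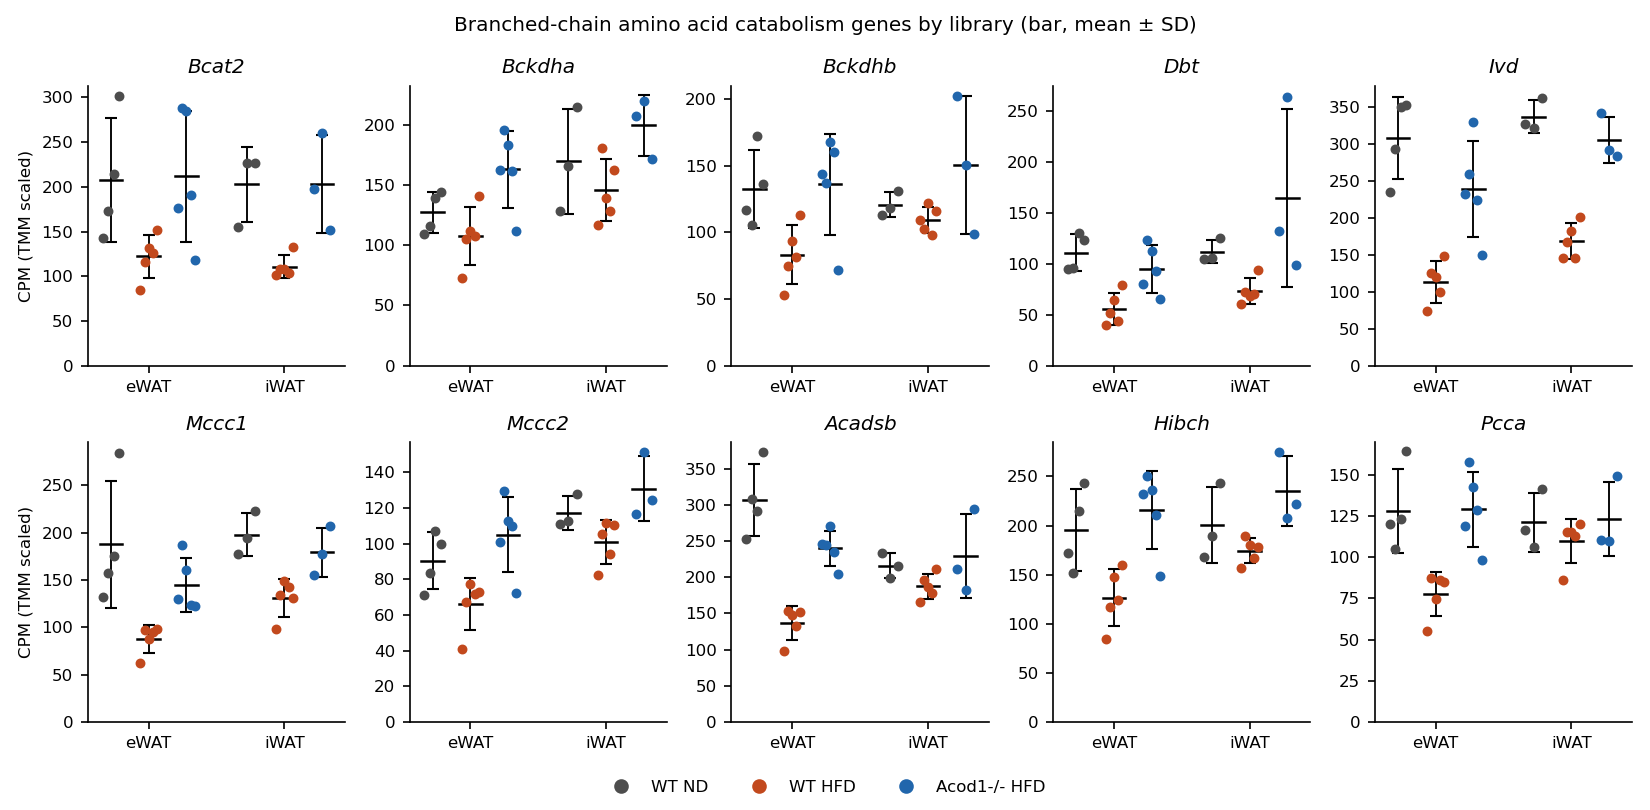
CPM after TMM scaling (vertical axes, from 0) of the 10 genes in eWAT and iWAT, 1 point per library, with the mean and SD of each group as bars. In eWAT the 5 WT HFD libraries of Ivd, at 74.1 to 149 CPM, lie below the 4 ND libraries, and for Acadsb the Acod1-/- HFD libraries span 205 to 271 CPM, above all WT HFD libraries.

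On HFD in eWAT, Acod1-/- mice had higher levels of the 10 genes than WT mice. All 10 passed as higher (edgeR adjusted p under 0.1), where 9.13% of the genes tested were higher. The median log2 fold change of the 10 was 0.75, against 0.04 over all genes tested, with single genes between 0.60 and 1.08. In 4 genes, Ivd, Mccc1, Acadsb and Pcca, every Acod1-/- library lay above every WT HFD library, as in 2.81% of all genes tested. The comparisons by diet and by genotype share the 5 WT HFD libraries. Counted together, 9 of the 10 genes were lower by diet and higher by genotype, where 6.68% of all genes tested were.

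Ivd read 232, 259, 329, 224 and 149 CPM in the 5 Acod1-/- libraries, a log2 fold change of 1.08 ± 0.21 over WT HFD, or 2.11-fold (edgeR adjusted p = 0.0121). Its separation from WT HFD was narrow, since Acod1-/- replicate 5 read 149.4 CPM and WT HFD replicate 5 read 148.6 CPM. Acadsb read 246, 245, 271, 235 and 205 CPM, with a log2 fold change of 0.81 ± 0.14 (adjusted p = 0.011), and its lowest Acod1-/- library was well above the highest WT HFD library. Acod1-/- replicate 5 was the lowest library of its group for every one of the 10 genes. This library also had the highest summed markers of epididymis (1051 CPM) and of macrophages (2134 CPM) in its group. It was the only library of the group in the later number range, and a link was not tested.

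Bcat2 read 177, 288, 285, 190.5 and 119 CPM in Acod1-/- eWAT, where replicates 2 and 3 were highest and replicate 5 lay within the WT HFD range. Its log2 fold change was 0.79 ± 0.26 (edgeR adjusted p = 0.0584). Among the BCKDH subunits, Dbt read 79.96, 123, 112, 93.2 and 65.7 CPM, overlapping WT HFD through replicate 5 (log2 fold change 0.77 ± 0.21, adjusted p = 0.031). Bckdha, which had not passed by diet, read 163, 196, 184, 161 and 112 CPM, and 4 of these 5 libraries lay above every WT HFD library (log2 fold change 0.60 ± 0.17, adjusted p = 0.0423). Bckdhb ranged from 72.1 to 167 CPM (log2 fold change 0.71 ± 0.23, adjusted p = 0.0628).

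In the branches, Mccc1 read 129.9, 187, 161, 123 and 122 CPM in Acod1-/- eWAT, above all WT HFD libraries (log2 fold change 0.72 ± 0.20, edgeR adjusted p = 0.0369). Mccc2 read 101, 129.7, 113, 109.96 and 72.2 CPM, with replicate 5 inside the WT HFD range (log2 fold change 0.67 ± 0.19, adjusted p = 0.0357). Hibch ranged from 149 to 250.1 CPM (log2 fold change 0.77 ± 0.19, adjusted p = 0.0227) and Pcca from 98.2 to 158 CPM (log2 fold change 0.73 ± 0.16, adjusted p = 0.0156). Both calls near the threshold depended on single libraries. Bcat2 did not pass without WT HFD replicate 1 (0.142), 2 (0.109) or 4 (0.107) or Acod1-/- replicate 2 (0.123) or 3 (0.143). Bckdhb did not pass without WT HFD replicate 1 (0.14), 2 (0.119) or 4 (0.12) or Acod1-/- replicate 1 (0.114), 3 (0.144) or 4 (0.131). The other 8 genes passed whichever library was left out, and all 10 passed among the 4 WT and 4 Acod1-/- HFD libraries of the earlier number range alone, where 11.1% of the genes tested were higher.

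**Figure D2:**
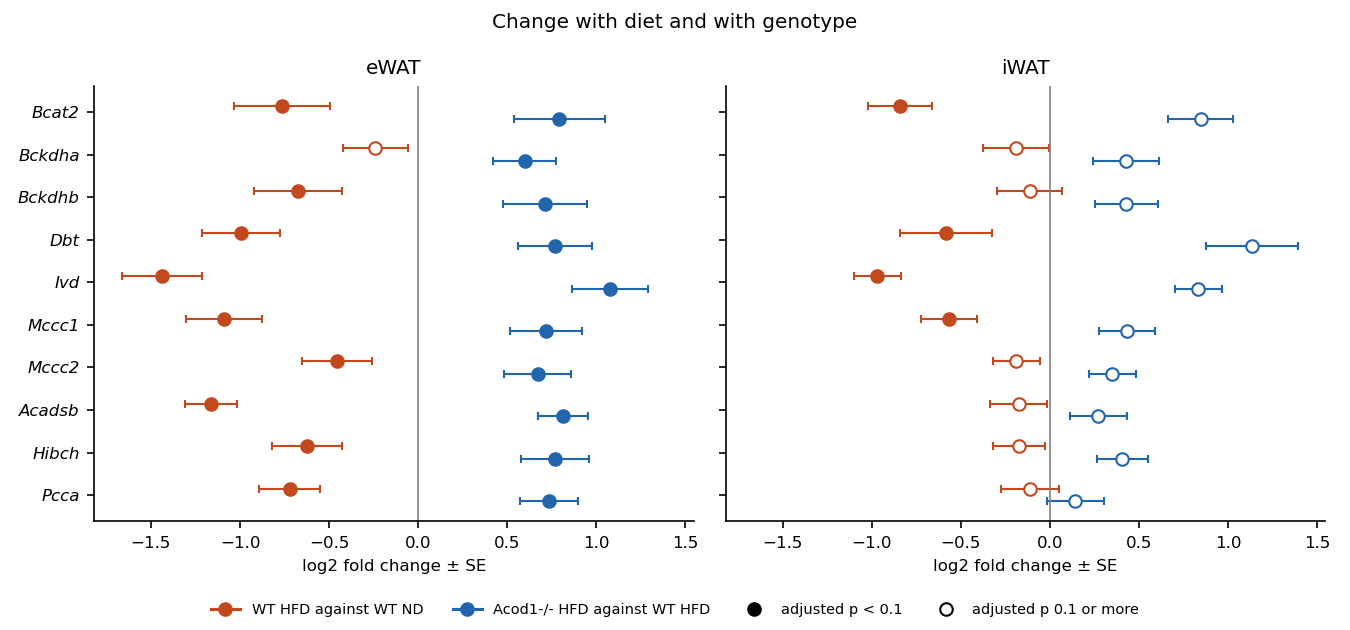
Log2 fold change with its SE (horizontal axis) of each gene for WT HFD against WT ND and for Acod1-/- HFD against WT HFD, in eWAT (left) and iWAT (right). Filled points passed at adjusted p under 0.1. In eWAT the diet points lie at or below -0.24 and the genotype points at or above 0.60.

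Set directly against ND, Acod1-/- HFD eWAT gave no call in either direction for the 10 genes, where 26.5% of all genes tested were called. At an unadjusted p under 0.05, 1 gene was lower, where 16.8% of the genes tested were, and 0 were higher, and the DESeq2 Wald test called 1 gene as lower, where it called 14.6% of the genes tested. Log2 fold changes ran from -0.37 for Mccc1 to 0.36 for Bckdha, with -0.36 for Ivd and 0.03 for Bcat2, and the median was 0.02. Acadsb was nearest to the threshold, at -0.35 ± 0.15 (adjusted p = 0.11). It passed without ND replicate 1 (0.0732), WT HFD replicate 1 (0.052) or Acod1-/- replicate 3 (0.0917), and Bckdha passed as higher without Acod1-/- replicate 5 (0.0744). These p values do not show that the 2 groups had equal levels.

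In iWAT, fewer steps were lower on HFD. In WT mice 4 of the 10 genes fell, Bcat2, Dbt, Ivd and Mccc1, and none rose (edgeR adjusted p under 0.1), where 24.2% of the 14801 genes tested fell and 25.9% rose. The log2 fold changes of all 10 were below 0, with a median of -0.19 against 0.0043 over all genes tested. The same 4 genes had every WT HFD library below every ND library, a separation found in 24.1% of all genes tested.

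Ivd again changed most. It read 327, 320.3 and 362 CPM in the 3 ND libraries and 145, 167, 182, 145 and 201 CPM in the 5 WT HFD libraries, a log2 fold change of -0.97 ± 0.13 (edgeR adjusted p = 0.000343). Bcat2 read 155, 226 and 227 CPM on ND and 101, 109, 108, 103 and 133 CPM on HFD, with all WT HFD libraries lower (log2 fold change -0.84 ± 0.18, adjusted p = 0.00392). Both also passed when the fit held the number range.

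Mccc1 read 177, 194 and 222 CPM on ND and 98.02, 134, 149, 142 and 131 CPM on HFD (log2 fold change -0.57 ± 0.16, edgeR adjusted p = 0.0141, and 0.171 with the number range as a term). Dbt read 105, 106 and 125 CPM on ND and 60.5, 72.1, 68.8, 70.6 and 93.9 CPM on HFD, and its log2 fold change of -0.58 ± 0.26 was close to the threshold (adjusted p = 0.0927). It was lost on leaving out any of the 3 ND libraries (0.123, 0.148 and 0.216 for replicates 1 to 3) or WT HFD replicate 1 (0.162), 2 (0.142), 3 (0.146) or 4 (0.14), and was 0.198 with the number range as a term.

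The other 6 genes moved less in iWAT. Acadsb read 234, 199 and 215 CPM on ND and 165, 196, 186, 178 and 211 CPM on HFD, groups that overlapped (log2 fold change -0.17 ± 0.16, edgeR adjusted p = 0.408). The log2 fold changes of Bckdha, Bckdhb, Mccc2, Hibch and Pcca were -0.19, -0.11, -0.19, -0.17 and -0.11, and none passed. With the number range as a term the direction turned for Acadsb (0.17) and Pcca (0.15), neither of which passed.

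Fitted over all 25 libraries, the response to diet differed between depots for 2 of the 10 genes, where 29.0% of 15034 genes tested differed. For Acadsb the log2 change by diet in eWAT minus that in iWAT was -0.96 ± 0.22 (edgeR adjusted p = 0.0031), and this held without any single library. For Pcca it was -0.58 ± 0.24 (adjusted p = 0.0859). The Pcca call was lost without any of 10 single libraries, eWAT ND replicate 3 or 4, eWAT WT HFD replicate 1 or 3, iWAT ND replicate 1 or 2 or iWAT WT HFD replicate 2, 3, 4 or 5, with adjusted p between 0.105 and 0.229. On ND itself, 1 of the 10 genes differed between depots, where 31.7% of the genes tested did. Acadsb was higher in eWAT than in iWAT by 0.50 ± 0.17 on the log2 scale (adjusted p = 0.0304), with all 4 eWAT libraries above the 3 of iWAT, but not without iWAT ND replicate 2 (0.135). Without iWAT ND replicate 1 Bckdha also passed, lower in eWAT (0.0652), and without eWAT WT HFD replicate 1 so did Mccc2 (0.0958).

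Between Acod1-/- and WT mice on HFD in iWAT, none of the 10 genes passed with edgeR after adjustment, as was so for all 14801 genes tested (0.0% called). All 10 log2 fold changes were above 0, with a median of 0.43 against -0.01 over all genes tested. At an unadjusted p under 0.05, 8 of the 10 were higher and 0 lower, where 7.18% of the genes tested were higher. In 6 of them, Bcat2, Dbt, Ivd, Mccc1, Mccc2 and Hibch, all 3 Acod1-/- libraries lay above all 5 WT HFD libraries, as in 3.66% of the genes tested.

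The largest of these differences belonged to Dbt, Bcat2 and Ivd, 3 of the 4 genes that had fallen with HFD in iWAT. The iWAT comparisons by diet and by genotype share the 5 WT HFD libraries, so low values there enter both. Dbt read 132, 263 and 98.6 CPM in Acod1-/- iWAT (log2 fold change 1.14 ± 0.26, edgeR adjusted p = 0.137), with replicate 2 far above the other Acod1-/- libraries. Replicate 2 also held the highest summed epithelial markers of the series, 580 CPM, and a link was not tested. Bcat2 read 198, 260.1 and 152 CPM (log2 fold change 0.85 ± 0.18, adjusted p = 0.136). Ivd read 341, 291 and 283 CPM, a group that overlapped with ND (log2 fold change 0.83 ± 0.13, adjusted p = 0.133).

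The number of calls in this comparison moved with the library left out and with the tool. Without WT HFD replicate 5, Bcat2 (0.0743), Dbt (0.0886) and Ivd (0.038) passed as higher, where 0.485% of the genes tested did. Without Acod1-/- replicate 3, 5 genes passed, Bcat2 (0.0161), Dbt (0.0156), Ivd (0.0154), Bckdhb (0.0189) and Hibch (0.0803), where 9.43% of the genes tested passed as higher. Within the earlier number range 6 did, against 7.11% of the genes tested. The DESeq2 Wald test called 5 as higher, against 2.97% of the genes tested. Against ND, no gene passed in Acod1-/- HFD iWAT, where 34.6% of all genes tested were called, and 0 of the 10 had an unadjusted p under 0.05, where 20.8% of the genes tested were higher and 17.8% lower at that level, or a DESeq2 call. Without Acod1-/- replicate 3, Bckdhb (0.0191) and Dbt (0.0418) passed as higher than ND, where 19.3% of the genes tested did, and without ND replicate 3 Hibch did (0.0749). The effect of genotype did not pass as different between depots for any of the 10 genes, where 0.00665% of the genes tested did. At an unadjusted p under 0.05, 2 of the 10 had a larger rise in eWAT, where 4.4% of the genes tested did, and DESeq2 called 0. Without iWAT Acod1-/- replicate 3, the difference passed for Acadsb (0.087). These fits took the libraries of the 2 depots as independent. With same-numbered libraries of the 2 depots as a block, 2 of the 10 genes passed. Of 15034 genes tested, 156 then passed as higher and 328 as lower.

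Ratios of FPKM within a library, formed after the values were seen, show the uneven changes inside the complexes. Mccc1 over Mccc2 was 0.526 ± 0.137 (SD, range 0.419 to 0.727) in eWAT on ND, 0.346 ± 0.0392 (SD, range 0.289 to 0.392) on HFD and 0.357 ± 0.0536 (SD, range 0.287 to 0.432) in Acod1-/- HFD mice. The lower ratio in WT HFD thus did not overlap with ND, while both HFD genotypes overlapped with each other. In iWAT it was 0.431 ± 0.0203 (SD, range 0.408 to 0.444) on ND, 0.332 ± 0.0338 (SD, range 0.304 to 0.386) on HFD and 0.354 ± 0.0635 (SD, range 0.299 to 0.424) in Acod1-/- HFD mice. Bckdha over Dbt, the decarboxylase alpha subunit over the core, was 2.03 ± 0.108 (SD, range 1.88 to 2.14) in eWAT on ND and 3.47 ± 0.496 (SD, range 3.09 to 4.28) on HFD, without overlap. In Acod1-/- HFD eWAT it was 3.06 ± 0.308 (SD, range 2.80 to 3.59), again above every ND library. In iWAT the same ratio was 2.65 ± 0.446 (SD, range 2.16 to 3.03) on ND, 3.54 ± 0.533 (SD, range 3.05 to 4.42) on HFD and 2.44 ± 0.848 (SD, range 1.47 to 3.07) in Acod1-/- HFD mice. Here WT HFD lay above ND without overlap and the Acod1-/- libraries spread widely.

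**Figure D3:**
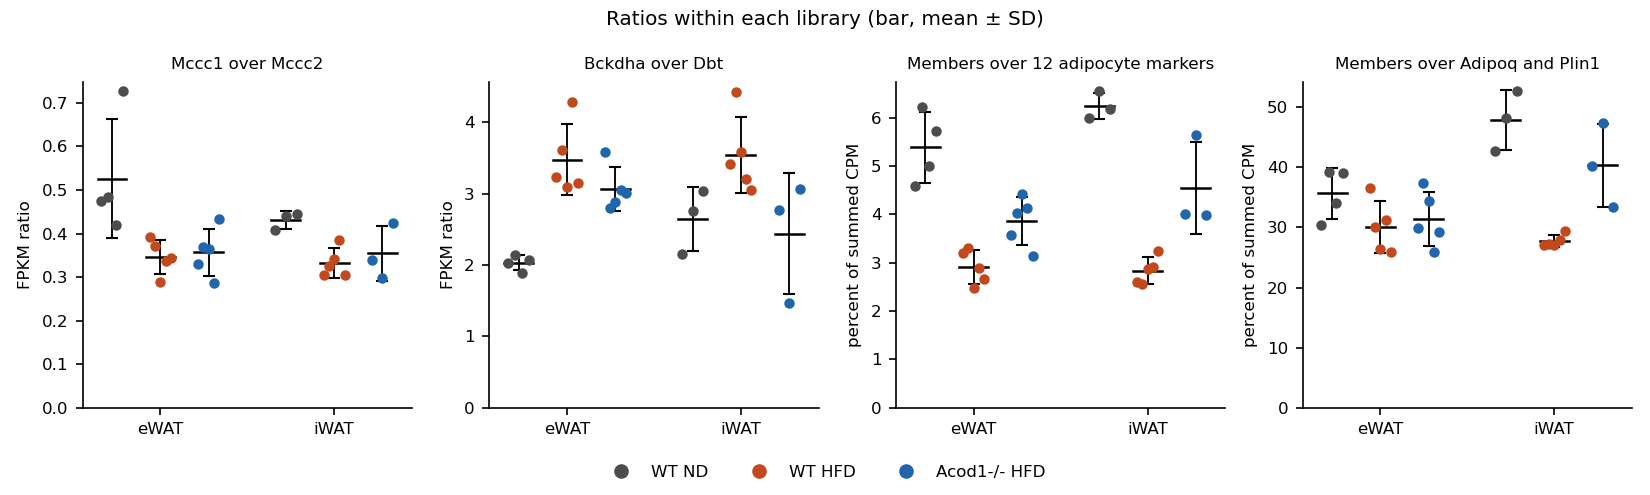
Ratios within each library, 1 point per library with group mean and SD as bars, namely FPKM of Mccc1 over Mccc2, FPKM of Bckdha over Dbt, and the summed CPM of the 10 genes as a percent of 12 adipocyte markers or of Adipoq and Plin1 alone. Mccc1 over Mccc2 is lower in eWAT of WT HFD mice (0.289 to 0.392) than on ND (0.419 to 0.727), while the last panel shows overlapping eWAT groups.

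Further enzymes of the pathway, 12 genes listed by function, were also mostly lower on HFD in eWAT. Of the 12, 9 fell and 1 rose, where 26.9% of all genes tested fell and 24.8% rose. Aldh6a1, the methylmalonate-semialdehyde dehydrogenase of valine breakdown, fell from 779 ± 120.4 to 297 ± 65.7 CPM (SD, n = 4 and 5, log2 fold change -1.39 ± 0.19, edgeR adjusted p = 0.000337). Mmut, methylmalonyl-CoA mutase, changed by -0.86 on the log2 scale and Acad8, isobutyryl-CoA dehydrogenase, by -0.44. The gene that rose was Bcat1, the cytosolic aminotransferase, from 6.78 ± 2.49 to 22.03 ± 4.76 CPM (log2 fold change 1.70 ± 0.41, adjusted p = 0.0059), opposite to mitochondrial Bcat2. In Acod1-/- HFD eWAT, 9 of the 12 were higher than in WT HFD and none lower, where 9.13% of all genes tested were higher. Aldh6a1 (0.95), Mmut (0.63), Echs1 (0.74), which hydrates enoyl-CoA, and Acad8 (0.45) had the lowest adjusted p among them. Bcat1 did not pass by genotype (log2 fold change -0.74 ± 0.37, adjusted p = 0.21).

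In iWAT on HFD, 3 of the 12 fell and 1 rose, a share of falls near that of all genes tested, of which 24.2% fell and 25.9% rose. Aldh6a1 changed by -0.63 ± 0.13 (edgeR adjusted p = 0.00301), Echs1 by -0.53 and Hsd17b10, a dehydrogenase of the isoleucine branch, by -0.40 on the log2 scale. Bcat1 rose from 7.16 ± 2.18 to 49.3 ± 9.51 CPM (SD, n = 3 and 5, log2 fold change 2.82 ± 0.55, adjusted p = 0.00232). It was also above ND in Acod1-/- HFD iWAT (log2 fold change 2.61 ± 0.57, adjusted p = 0.00721). The diet response of Acad8 (-0.47, adjusted p = 0.0257), Aldh6a1 (-0.73, 0.0347) and Mmut (-0.50, 0.0778) was more negative in eWAT than in iWAT on the log2 scale. These 3 of 12 are no larger a share than the 29.0% of all genes tested whose diet response differed between depots.

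Of 8 regulators of BCKDH and BCAA transporters, 4 fell and none rose with HFD in eWAT, where 26.9% of all genes tested fell. Klf15, a transcription factor known to drive BCAA enzyme genes, fell from 85.5 ± 33.3 to 24.4 ± 4.79 CPM (SD, n = 4 and 5, log2 fold change -1.81 ± 0.27, edgeR adjusted p = 0.000546). Slc43a1, a plasma membrane transporter of large neutral amino acids, changed by -2.26 ± 0.35 (adjusted p = 0.000566). Ppm1k, the phosphatase that activates BCKDH, changed by -1.07 ± 0.20 (adjusted p = 0.00145), and Slc25a44, the mitochondrial BCAA carrier, by -0.68. Bckdk, the kinase that inhibits BCKDH and is named here after its values were seen, averaged 53.8 ± 4.72 CPM on ND and 55.6 ± 4.79 CPM on HFD (adjusted p = 0.804) and passed in no comparison.

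By genotype in eWAT, 2 of the 8 were higher in Acod1-/- mice, where 9.13% of all genes tested were, Klf15 (1.25 ± 0.26, edgeR adjusted p = 0.0136) and Slc43a1 (1.45 ± 0.33, adjusted p = 0.016). Ppm1k stayed below ND in Acod1-/- HFD eWAT, at -0.63 ± 0.20 (adjusted p = 0.0464), and in Acod1-/- HFD iWAT, at -0.74 ± 0.21 (adjusted p = 0.0262). In iWAT on HFD, 4 of the 8 fell and 1 rose, where 24.2% and 25.9% of all genes tested did. Slc43a1 changed by -2.83, Ppm1k by -1.35 and Klf15 by -1.25 on the log2 scale, and Slc3a2, the heavy chain of amino acid exchangers, rose by 0.80 (adjusted p = 0.00119). Of 4 genes for the biotin and cobalamin cofactors, none passed in eWAT on HFD, and Mmaa, a cobalamin chaperone gene, was higher in Acod1-/- than in WT HFD eWAT (log2 fold change 0.53 ± 0.16, adjusted p = 0.0507).

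**Figure D4:**
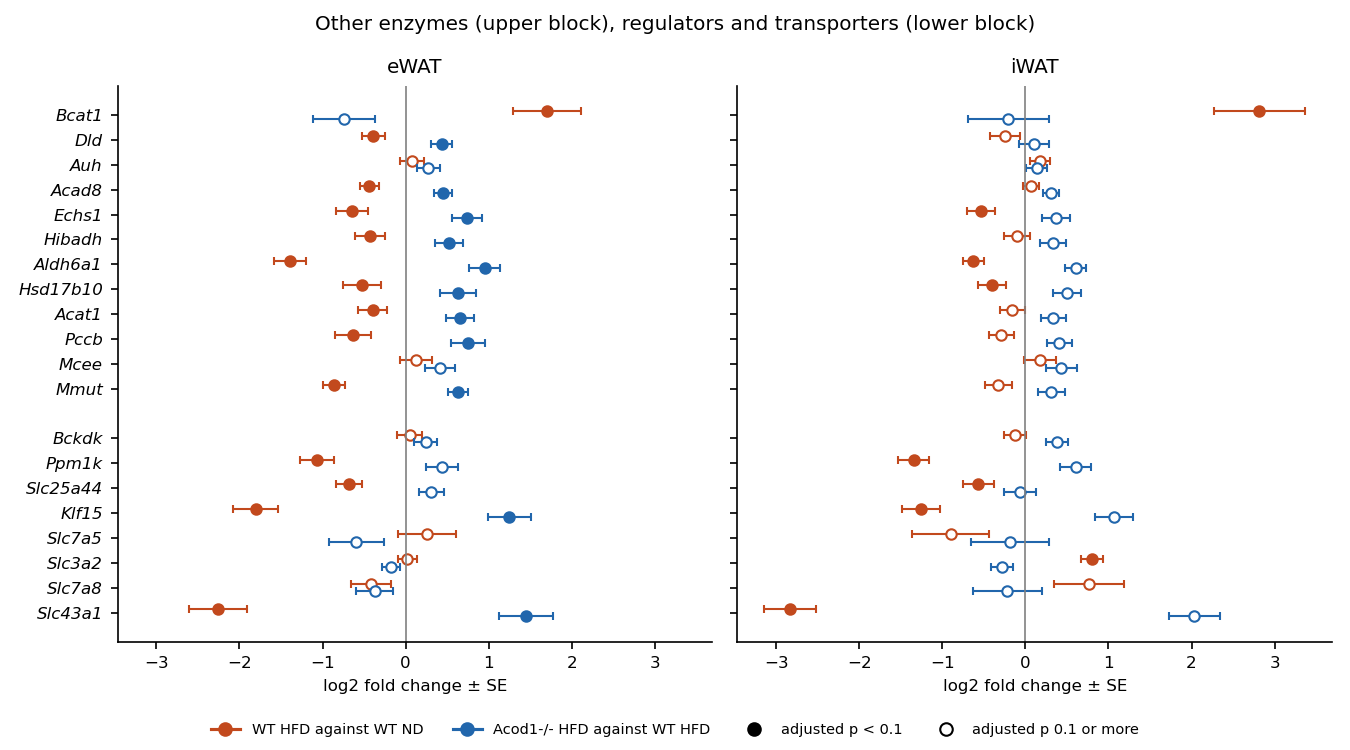
Log2 fold change with its SE (horizontal axis) of 12 further enzymes (upper block) and 8 regulators and transporters (lower block) by diet and by genotype, in eWAT (left) and iWAT (right), with filled points at adjusted p under 0.1. Bcat1 lies to the right by diet in both depots, at 1.70 and 2.82, and Klf15 and Slc43a1 lie to the left.

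For comparison, 16 genes of the tricarboxylic acid cycle, another mitochondrial pathway, had a median log2 fold change of -0.24 with HFD in eWAT, with 6 lower and none higher, where 26.9% of all genes tested were lower. By genotype in eWAT their median was 0.41, with 5 higher and none lower, where 9.13% of all genes tested were higher. In iWAT on HFD 9 of the 16 fell, where 24.2% of all genes tested did, with a median of -0.41, where the 10 BCAA genes had a median of -0.19. Whether the 2 pathways differ was not tested.

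Across the 25 libraries, centred on the mean of each depot, the 10 genes moved with each other. The 45 pairs had Pearson correlations between 0.54, for Bckdha with Acadsb, and 0.89, with a median of 0.79. Within eWAT each gene correlated with the mean of the other 9 at 0.86 or more, whereas in iWAT Bckdhb, Acadsb and Pcca reached 0.48, 0.47 and 0.54. Among 10907 other genes that averaged 5 CPM or more in both depots, those most like the mean of the 10 were Pccb (r = 0.967), the partner subunit of Pcca, Gsta4 (0.961), Adhfe1 (0.959), Eci3 (0.957) and Slc2a4 (0.949). These values describe 25 libraries that share groups and depth, and genes within a library are not independent.

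Markers of several cell types moved with these results. In eWAT, 12 macrophage markers summed to between 559 and 1070.0 CPM on ND, between 2433 and 8123 CPM in WT HFD and between 528 and 2134 CPM in Acod1-/- HFD mice. Of these, 11 rose and 1 fell with HFD, where 24.8% of all genes tested rose and 26.9% fell. By genotype 11 were lower, where 10.8% of all genes tested were. Among the 5 WT HFD libraries the order by summed BCAA genes was the reverse of that by macrophage markers, from replicate 1 (665 CPM against 8123 CPM) to replicate 5 (1200.2 CPM against 2433 CPM). The same reverse order held among the 5 Acod1-/- libraries, from replicate 5 (1164 CPM against 2134 CPM) to replicate 3 (2001 CPM against 528 CPM). It did not hold in full among the ND libraries. There the summed BCAA genes read 1447, 1588, 1918 and 2223 CPM, against 1070.0, 559, 732 and 571 CPM of macrophage markers. Among iWAT WT HFD libraries the reverse order broke between replicates 2 and 3. Their BCAA sums were 1371 and 1361 CPM, against 1020 and 947 CPM of macrophage markers. In eWAT WT HFD the summed adipocyte markers were also lowest in replicate 1 (20811 CPM) and highest in replicate 5 (44948 CPM). In iWAT macrophage markers summed to between 495 and 581 CPM on ND, 633 and 1675 CPM in WT HFD and 544 and 566 CPM in Acod1-/- HFD libraries.

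Markers of brown adipocytes, cells in which BCAA oxidation is known to be high, moved the same way in iWAT. The 7 markers summed to between 183 and 1320.3 CPM on ND, 60.9 and 103 CPM in WT HFD and 129 and 311 CPM in Acod1-/- HFD libraries, with WT HFD below both other groups and without overlap. Of the 6 that passed the filter on low counts, 4 fell with HFD in iWAT, where 24.2% of all genes tested did. These were Ucp1, Cidea, Cox7a1 and Cox8b, and none of the 6 passed by genotype. In eWAT the brown adipocyte markers went the other way, since 3 of the 5 that passed the filter rose with HFD and none fell. Their median log2 fold change was 1.48, and 24.8% of all genes tested rose. Their sum there was between 13.7 and 29.1 CPM on ND, 23.8 and 67.6 CPM in WT HFD and 26.2 and 109.8 CPM in Acod1-/- HFD libraries.

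For the counts that follow, the shares over all genes tested were 26.9% lower and 24.8% higher with HFD in eWAT. In iWAT they were 24.2% and 25.9%, and by genotype in eWAT 10.8% were lower and 9.13% higher. Of 6 fibroblast and progenitor markers, 5 rose with HFD in each depot, and in eWAT 4 were lower by genotype. They summed to between 1046 and 1345 CPM on ND, 1748 and 3198 CPM in WT HFD and 912 and 1757 CPM in Acod1-/- HFD eWAT. Of 5 endothelial markers, 4 fell with HFD in eWAT and all 5 rose in iWAT, and none passed by genotype in either depot. Epithelial markers fell with HFD in 5 of 6 cases in eWAT and in 2 of 6 in iWAT. In eWAT their sum went from between 30.8 and 378 CPM to between 3.40 and 22.5 CPM. In iWAT their sum was 0.909 to 9.96 CPM in WT HFD, and 3.45, 580 and 4.17 CPM in the 3 Acod1-/- HFD libraries. At an unadjusted p under 0.05, 4 of the 6 were higher by genotype in iWAT, where 7.18% of the genes tested were. Of 7 epididymis markers, 2 fell with HFD in eWAT and 3 were higher by genotype. Of 8 skeletal muscle markers, 7 fell with HFD in iWAT, where the sum ran from 6.44 to 8758 CPM on ND and from 19.9 to 433 CPM in WT HFD. Of 7 lymphocyte markers, all 7 fell with HFD in iWAT, while in eWAT 2 rose with HFD and 2 were lower by genotype. In whole tissue, fewer adipocytes and less RNA of these genes per adipocyte cannot be told apart.

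Adipocyte markers behaved differently in the 2 depots. In eWAT 6 of 12 fell and 1 rose with HFD, where 26.9% of all genes tested fell and 24.8% rose. Their median log2 fold change was -0.55. By genotype 6 were higher, with a median of 0.54, where 9.13% of all genes tested were higher. In iWAT 4 rose and 2 fell with HFD, where 25.9% of all genes tested rose and 24.2% fell. Their median there was 0.20, where the 10 BCAA genes had a median of -0.19. The summed CPM of the 12 markers in eWAT averaged 33565 on ND, 34408 in WT HFD and 43282 in Acod1-/- HFD mice, and so did not follow their median. In iWAT the sum averaged 28792 on ND, 46349 in WT HFD and 43203 in Acod1-/- HFD mice. A percent of this sum therefore moves with the sum as well as with the BCAA genes. As a percent of the summed CPM of all 12 markers, the 10 BCAA genes were at 5.38 ± 0.726 (SD, range 4.59 to 6.22) in eWAT on ND, 2.91 ± 0.353 (SD, range 2.47 to 3.31) on HFD and 3.86 ± 0.501 (SD, range 3.14 to 4.42) in Acod1-/- HFD mice. Against Adipoq and Plin1 alone, a denominator chosen after the values were seen, the same groups were at 35.7 ± 4.23 (SD, range 30.4 to 39.2), 30.04 ± 4.36 (SD, range 25.8 to 36.6) and 31.4 ± 4.52 (SD, range 25.9 to 37.4) percent and overlapped with each other. In iWAT the percent of Adipoq and Plin1 was 47.9 ± 5.04 (SD, range 42.7 to 52.7) on ND, 27.8 ± 1.001 (SD, range 27.03 to 29.4) on HFD and 40.3 ± 6.92 (SD, range 33.5 to 47.3) in Acod1-/- HFD mice, and WT HFD did not overlap with either. In eWAT the separation of ND from both HFD groups was thus present with all 12 markers and not with Adipoq and Plin1, while WT HFD and Acod1-/- HFD overlapped with either reference. That of WT HFD in iWAT was present with both, the percent of all 12 markers being 6.24 ± 0.278 (SD, range 5.997 to 6.54) on ND, 2.84 ± 0.277 (SD, range 2.55 to 3.24) on HFD and 4.54 ± 0.951 (SD, range 3.98 to 5.64) in Acod1-/- HFD mice. The part of cell composition in the results was not tested.

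**Figure D5:**
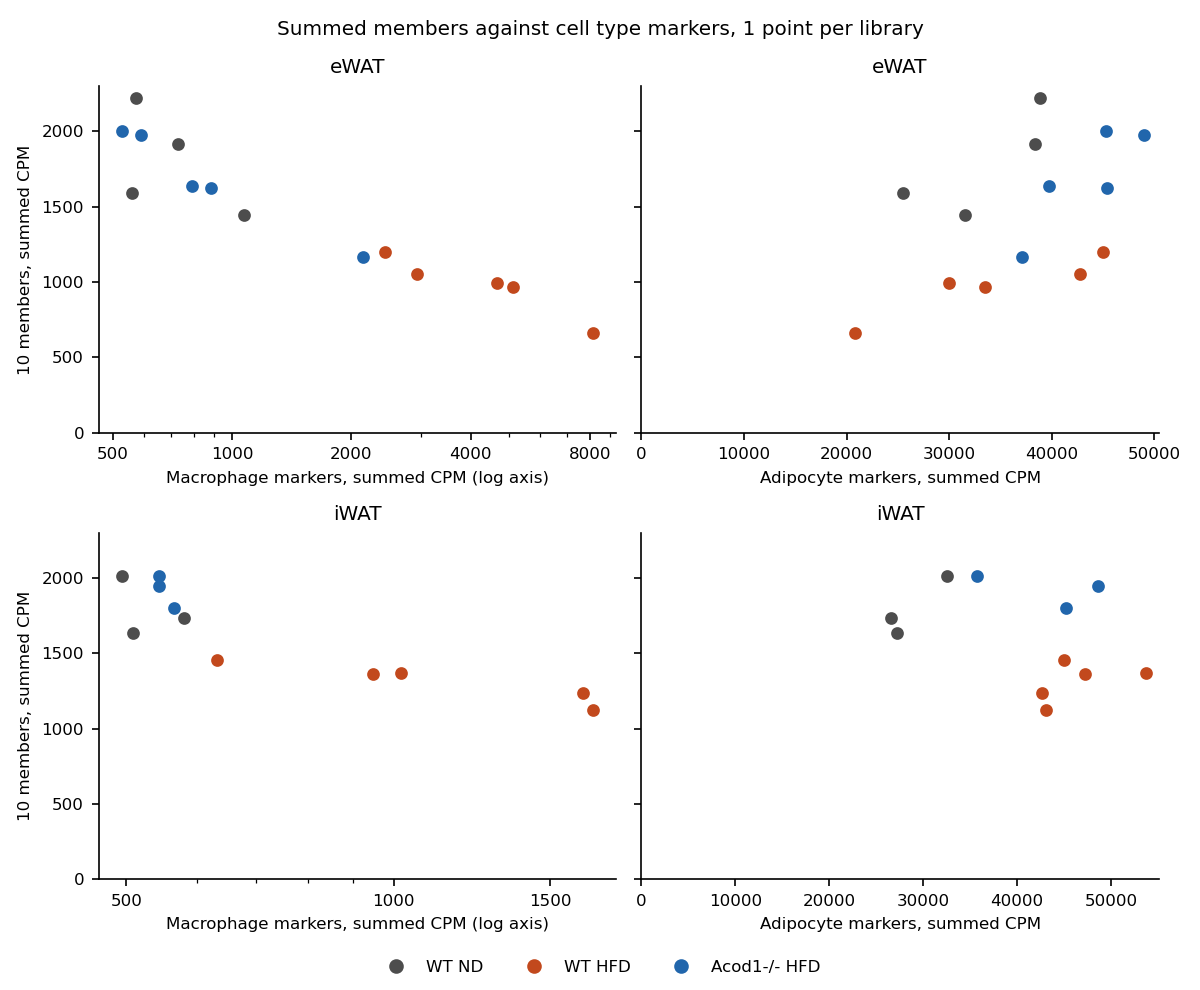
Summed CPM of the 10 BCAA genes (vertical axis) against the summed CPM of 12 macrophage markers (left, log axis) and 12 adipocyte markers (right), 1 point per library, for eWAT (top) and iWAT (bottom). In eWAT the WT HFD library with the most macrophage marker CPM, 8123, has the lowest BCAA sum, 665.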

How the data were processed

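RNA-seq of adipose tissue was deposited as 1 file per library, with integer counts per gene and FPKM. Per the labels and the study's methods, RNA was extracted from snap-frozen tissue, directional mRNA libraries were prepared with a NEBNext Ultra II kit, and the authors trimmed reads with cutadapt and aligned them with STAR to mm10. The counting program and its strand setting are not given in the sources used here. The deposited counts were used for all tests and the FPKM computed by the authors, per length and depth, only for ranks and ratios between genes. Rows without a feature or ambiguous (6.41 to 11.9% and 1.52 to 2.07% of reads) were left out of library sizes. Ensembl IDs were joined to symbols for 54723 of 54752 genes with the GENCODE annotation of the same build.

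The 10 genes and all lists (other enzymes, regulators and transport, cofactors, tricarboxylic acid cycle, cell type markers) were chosen with earlier results of these data known. One enzyme of the pathway is not reported here. The 10 genes are named in each comparison, of the other pathway lists up to 4 genes with the lowest adjusted p among those called, and 5 genes most like the mean of the 10.

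Tests used edgeR 4.0.16 (TMM, glmQLFit and glmQLFTest, R 4.3.3) on genes averaging 1 CPM or more over the fitted libraries, with the 3 groups of a depot in one fit and all 25 libraries for differences between depots. P values were adjusted by Benjamini-Hochberg over all genes tested and called under 0.1. Log2 CPM used a prior count of 2. The tests were checked on simulated counts in which 200 genes were changed. In the eWAT data themselves, 1364 genes were called higher and 1612 lower by genotype. The simulated rates therefore need not be those of the 10 genes. Of genes given a log2 change of 0.7 by genotype, 33% were called in eWAT and 10% in iWAT. At a change of 1.0 these were 66% and 48%, and of all calls 10.8% and 12.1% were false. A lack of calls in iWAT therefore does not show a lack of change. The study describes each group as mice, in numbers equal to the libraries per depot, and the labels tie no library to an animal. No 2 libraries of a group agreed within counting noise. Depth of 31405063 reads or more left counting error small beside that spread. Alternatives were other filters and size factors, DESeq2 1.42.0, a threshold of 0.05, the header number range, replicate numbers as a block, fits of the compared groups alone and each library left out.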

Additional observations from a re-analysis of the deposited data

Results flagged for a closer look

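A screen of 40 groups of 4 or 5 libraries for a single value far from the rest (Dixon's test at 95%) marked 4, and chance marks about 1 in 20. Bcat2 in iWAT WT HFD replicate 5 stood at 133 CPM, above the other 4 libraries (101 to 109 CPM). Mccc1 in eWAT WT HFD replicate 1 stood at 62.3 CPM, below the others (87.4 to 97.6 CPM), and Mccc2 in the same library at 40.7 CPM (others 67.1 to 77.5 CPM). This was the eWAT library with the highest macrophage marker sum, 8123 CPM. Pcca in iWAT WT HFD replicate 1 stood at 86.1 CPM (others 113 to 120.1 CPM).

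The response to HFD differed between depots for 2 of the 10 genes, Acadsb and Pcca, where 29.0% of 15034 genes tested differed. For Acadsb the log2 change in eWAT minus that in iWAT was -0.96 (edgeR interaction, adjusted p = 0.0031). For Pcca it was -0.58 (adjusted p = 0.0859), a call that several single libraries, when left out, removed. Acadsb was lower in all 5 eWAT WT HFD libraries than in any of the 4 ND libraries, whereas in iWAT the groups overlapped.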

How the results depend on the processing

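In eWAT, 8 or 9 of the 10 genes were lower by diet and 8 to 10 higher by genotype under other filters, size factors, DESeq2, an adjusted p under 0.05, the replicate block and fits of the compared groups alone, and 6 were lower by diet with the header number range as a term. Counts left the range of 1.5 times as follows. In iWAT by genotype, 0 calls became 3 without a filter, 3 with at least 1 CPM in every library and 1 with DESeq2 size factors. Over all genes tested, 43 of 31603, 50 of 12215 and 4 of 14801 were higher. With the DESeq2 Wald test the calls became 5, where 440 of 14801 genes tested were higher. Within the earlier number range the calls became 6, where 1026 of 14429 genes tested were higher. For Acod1-/- HFD against ND in eWAT, 0 became 1 with at least 1 CPM in every library and 1 with DESeq2. Over all genes tested, 1804 of 12142 and 2188 of 14936 were lower. In iWAT by diet, 4 became 2 with the number range as a term, where 2587 of 14801 genes tested were lower. For the difference in diet response between depots, 2 became 1 without a filter and 1 at 0.05. Over all genes tested, 1845 of 36252 and 1598 of 15034 had a more negative response in eWAT. The cause was not tested.

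With each library left out in turn, calls ranged from 7 to 9 by diet and 8 to 10 by genotype in eWAT. In iWAT they ranged from 3 to 4 and 0 to 5. Over all genes tested, 3311 to 4166 fell by diet and 703 to 2020 were higher by genotype in eWAT. In iWAT 2649 to 4072 fell by diet and 0 to 1401 were higher by genotype. For Acod1-/- HFD against ND, calls among the 10 genes ranged from 0 to 1 in eWAT and 0 to 2 in iWAT. For depots on ND they ranged from 0 to 2, for the diet response between depots from 1 to 2 and for the genotype response from 0 to 1. In the main fits, 26.5%, 34.6%, 31.7%, 29.0% and 0.00665% of all genes tested were called, in the same order.

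Whether replicate numbers pair libraries is not given by the labels. Same-numbered libraries correlated over 0.1 in 5 of 11 pairs across depots and 12 of 22 within depots. In groups of 3 to 5, the best match had the own number in 13 of 22 checks across depots and 20 of 44 within. Both counts are above those of random matching, and pairing by animal or by preparation was not tested. With replicate numbers as a block, 4 genes differed between depots on ND, where 2760 of 15034 genes tested were higher and 2165 lower. In their genotype response 2 differed, where 156 of the genes tested were higher and 328 lower. The other 7 counts stayed within 1.5 times.

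Directions turned only where the value had not passed. Set against ND, in Acod1-/- HFD eWAT Pcca turned to -0.010 without a filter, -0.0040 with 1 CPM in every library and -0.11 with the number range as a term, where Bcat2 was -0.14 and Bckdhb -0.059. In iWAT Bcat2 turned to -0.016 with 1 CPM in every library and -0.0023 with the number range, and by diet Acadsb turned to 0.17 and Pcca to 0.15 with that term. Between depots on ND, Dbt turned to 0.011 without a filter, and Bcat2 to -0.20 and Pcca to -0.055 under the block, under which the diet response of Bckdha turned to 0.0065 and the genotype response of Bcat2 to 0.17.

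With a library left out, log2 values that crossed 0 were, in Acod1-/- HFD against ND, Bcat2 (-0.14 to 0.26), Bckdhb (-0.056 to 0.19) and Pcca (-0.075 to 0.15) in eWAT, and Bcat2 (-0.21 to 0.19), Pcca (-0.13 to 0.16) and Acadsb (-0.12 to 0.23) in iWAT. Between depots on ND they were Bcat2 (-0.20 to 0.18), Bckdhb (-0.0080 to 0.23), Dbt (-0.088 to 0.072), Mccc1 (-0.35 to 0.059), Hibch (-0.16 to 0.13) and Pcca (-0.061 to 0.20). For the diet response between depots they were Bcat2 (-0.040 to 0.34) and Bckdha (-0.23 to 0.15), and for the genotype response Bcat2 (-0.27 to 0.12) and Dbt (-0.68 to 0.10).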
